A study of Homo sapiens with 8 samples.

Results

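The genes described here are PTX3 and 8 genes of the complement system, 9 of the 17649 genes in the deposited table, in MDA-MB-231 cells with and without carboxymethyllysine (CML). PTX3 encodes a secreted pentraxin, C3 and CFB the central component and the alternative-pathway protease, C1R and C1S the proteases of the C1 complex, SERPING1 the C1 inhibitor, and CD46, CD55 and CD59 the membrane regulators. The members were chosen by symbol with results of this contrast already known, so their differences between the groups are given as a description, and no p-value is given for them. All 9 symbols were found, each in 1 row. MDA-MB-231 is an established, single ER-negative breast cancer line with a mesenchymal-like phenotype. RNA-Seq had been performed on 4 libraries of control cells, to which PBS was added. Another 4 libraries came from cells exposed to 1 µM CML for 48 hours in low-glucose medium. CML is an advanced glycation end product, formed when sugars react with lysine, and the comparison asks what exposure to it does to the transcriptome of these cells. The labels do not say whether replicates were separate cultures, so any p-value below measures only the spread between these libraries, which may be technical.

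Complement is a cascade of plasma and cell-surface proteins that tags and lyses targets. The classical, lectin and alternative routes all lead to cleavage of C3, and soluble and membrane-bound regulators hold the cascade back on the body's own cells. Pentraxin 3 is a soluble pattern-recognition molecule that can bind C1q, and its transcription is known to respond to inflammatory signals through NF-κB. Tumor cells, like many cells outside the liver, can make several of these components themselves and commonly carry CD46, CD55 and CD59 on their surface.

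Estimated depth was 16161804 to 18954734 reads per library, and 1 read was worth 0.0535 to 0.0622 CPM, the unit of the table, in which counts are put on one scale of depth. Across all 17649 genes, limma with Benjamini-Hochberg adjustment called 158 at an adjusted p under 0.3, 119 of them higher and 39 lower with CML, and none at 0.05. An unadjusted p under 0.05 was reached by 1352 genes. The split of the calls moved with scaling, with 90 higher and 54 lower after quantile normalization and 46 higher and 27 lower after centring each library on its median. The markers of the line that had a row were as high or as low as its label implies. VIM had 4014 to 4243 CPM and CD44 803 to 885 CPM, while PGR had 0.114 CPM or less and CDH1 0.954 CPM or less. Markers of other cells that make complement were mostly low. ALB of hepatocytes lay between 0.161 and 0.521 CPM, PTPRC of leukocytes at 0.650 CPM or less and DCN of fibroblasts at 0.0605 CPM or less. Fibroblast markers summed to 13.4 to 15.4 CPM in control and 13.5 to 17.7 CPM in CML libraries, mainly from COL1A1, and endothelial markers to 3.53 to 3.96 and 3.11 to 3.78 CPM. CD68, which is not restricted to leukocytes, had 152 to 181 CPM. ESR1, a further marker of the line, and APOA1, TTR, C1QA and CDH5 had no row in the table and could not be checked.

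PTX3 was the only member whose groups did not overlap. It lies on chromosome 3 (GRCh38.p14, chr3:157436850-157443633, plus strand). The 250 bases before the start of PTX3 (chr3:157436600-157436849, plus strand) and of CFB (chr6:31945845-31946094, plus strand), from RefSeq on GRCh38.p14, are shown because they were the only windows of members with a match to the NF-κB motif. They run 5′ to 3′ in the direction of transcription and end next to the annotated start, with motif matches in capitals.
PTX3: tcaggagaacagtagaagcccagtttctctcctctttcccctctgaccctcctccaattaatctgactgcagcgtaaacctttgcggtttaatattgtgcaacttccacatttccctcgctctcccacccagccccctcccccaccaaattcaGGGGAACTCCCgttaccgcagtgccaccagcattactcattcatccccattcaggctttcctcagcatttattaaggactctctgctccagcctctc
CFB: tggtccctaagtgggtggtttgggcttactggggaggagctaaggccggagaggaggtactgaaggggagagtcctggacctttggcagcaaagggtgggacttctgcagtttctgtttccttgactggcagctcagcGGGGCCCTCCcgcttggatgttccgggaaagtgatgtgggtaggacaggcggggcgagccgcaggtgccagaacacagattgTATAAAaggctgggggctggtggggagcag
In PTX3 the capitals are 1 stretch with overlapping NF-κB matches at bases 97 to 88 and 96 to 87 before the start, the latter on both strands. In CFB they are 1 NF-κB match, at bases 112 to 103, and a TATAAA at bases 30 to 25. Windows were available for 6 of the 9 members, 11 windows in all, and were searched on both strands for NF-κB (10 bases), AP-1 (TGANTCA) and TATAAA. Of all 35116 windows of that length, 9.96% held an NF-κB match, 6.57% an AP-1 match and 10.7% TATAAA. A window at 1 alternative start of CD59 held AP-1 matches at bases 117 to 111 and 23 to 17. These matches describe letters only, and binding was not measured.

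In the 4 control libraries PTX3 had 239.4, 239.8, 238.4 and 240.1 CPM. In the CML libraries it had 267.3, 254.7, 261.6 and 265.8 CPM. All CML libraries were above all control libraries, by the smallest margin in CML replicate 2. The mean went from 239 ± 0.750 CPM to 262 ± 5.65 CPM (SD, n = 4), a difference of 22.9 CPM or 9.57%. On the log2(CPM + 1) scale, on which all fold changes here are given, this was 0.13 with a 95% interval of 0.09 to 0.17 in limma. PTX3 was thus the 1 member of 9 past the threshold that 0.895% of all genes passed. It was likewise the 1 member with no overlap, which 2.5% of genes showed with CML higher and 1.27% with CML lower, and no member was of the latter kind. Because the members were chosen on this contrast, nothing is read from these counts. RNA of a whole culture does not tell a change in the number of cells of a kind from a change in RNA per cell.

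The 4 control values of PTX3 lay unusually close together. Their coefficient of variation was 0.313%, the third smallest among the 2260 genes averaging 100 CPM or more, whose median was 4.39%. Counting error alone, at 3942 to 4213 reads per control library, gives 1.57%. The standard error of the fold change was 0.0164 over all genes and 0.0315 when genes under 1 CPM were left out of the fit. With libraries centred on their median, the log2 fold change was 0.11 and PTX3 was not among the genes called. VEPH1, which overlaps PTX3 on the opposite strand, had 18.3 ± 2.10 CPM in control and 17.8 ± 1.16 CPM in CML libraries (SD, n = 4), and whether counting used strand is not given in the sources used here.

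**Figure D1:**
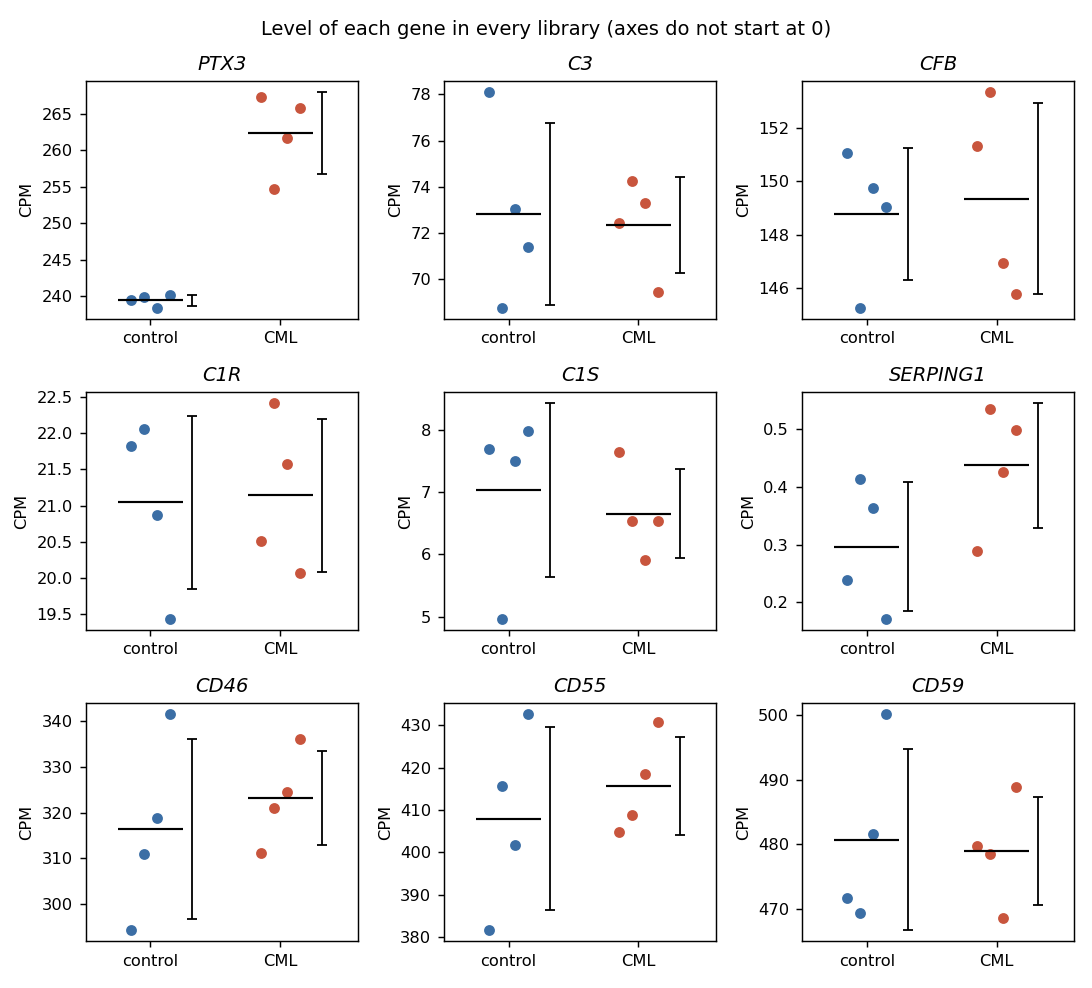
CPM of the 9 genes in each of the 4 control (blue) and 4 CML (orange) libraries. Black lines are group means and the bars beside them ± 1 SD. PTX3 is the only panel without overlap, with 238.4 to 240.1 CPM in control and 254.7 to 267.3 CPM in CML libraries.

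C3 and CFB, the component at which all routes meet and the protease of the alternative pathway, did not separate the groups. C3 (19:6677704-6720650, minus strand) had 78.1, 68.8, 73.1 and 71.4 CPM in control libraries and 72.4, 74.3, 73.3 and 69.4 CPM in CML libraries. The control range enclosed every CML value. Means were 72.8 ± 3.94 and 72.4 ± 2.09 CPM (SD, n = 4), and the log2 fold change was -0.01 with a 95% interval of -0.11 to 0.09.
CFB (6:31946095-31952084, plus strand) had 151.0, 145.3, 149.7 and 149.0 CPM in control libraries and 151.3, 153.3, 146.9 and 145.8 CPM in CML libraries. The groups overlapped, and 2 of 4 CML libraries exceeded the highest control. The log2 fold change was 0.01 with a 95% interval of -0.04 to 0.05, the narrowest of the complement members, from 148.8 ± 2.48 to 149.3 ± 3.57 CPM (SD, n = 4). C2, its classical-pathway counterpart, overlaps CFB on the same strand and had 9.31 ± 0.808 and 9.75 ± 0.352 CPM.

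C1R and C1S, adjacent genes on chromosome 12 whose products form the protease of C1, also overlapped between the groups. C1R (12:7080219-7092445, minus strand) had 21.8, 22.1, 20.9 and 19.4 CPM in control libraries and 20.5, 22.4, 21.6 and 20.1 CPM in CML libraries. Its log2 fold change was 0.01 with a 95% interval of -0.12 to 0.13. C1RL, a C1r-like protease gene, overlaps C1R on the same strand of the reference annotation. The estimated reads of C1R were whole, within 0.05 reads, in 6 of 8 libraries.
C1S (12:7060718-7071032, plus strand) was measured with 84 to 140 reads per library. Its control values were 7.69, 4.97, 7.50 and 7.98 CPM and its CML values 7.64, 6.53, 5.91 and 6.53 CPM. Control replicate 2 stood below every other library. The log2 fold change was -0.06 with a 95% interval of -0.40 to 0.29, and -0.19 when that library was left out.

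SERPING1 (11:57597685-57614848, plus strand), the gene of the inhibitor that inactivates C1r and C1s, was barely detected. It had 0.239, 0.414, 0.363 and 0.171 CPM in control libraries and 0.289, 0.535, 0.427 and 0.498 CPM in CML libraries, from 3 to 10 reads each. Only CML replicate 1 lay within the control range. Pooled over libraries there were 20 reads in control and 30 in CML cells, a depth-corrected ratio of 1.49 with an exact 95% interval of 0.816 to 2.76 for counting error only.

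None of the membrane regulators, which protect cells from their own complement, separated the groups. CD46 (1:207752038-207795516, plus strand), a cofactor for cleavage of C3b and C4b, had 294.3, 310.9, 318.8 and 341.6 CPM in control libraries and 311.1, 321.0, 324.6 and 336.1 CPM in CML libraries. The control range again enclosed all CML values, and the log2 fold change was 0.03 with a 95% interval of -0.08 to 0.14.
CD55 (1:207321678-207360966, plus strand), which speeds the decay of the C3 and C5 convertases, had 381.7, 415.6, 401.8 and 432.7 CPM in control libraries and 404.9, 408.8, 418.6 and 430.8 CPM in CML libraries. Here too every CML value fell inside the control range. Its log2 fold change was 0.03 with a 95% interval of -0.07 to 0.12.
CD59 (11:33703010-33736479, minus strand), which blocks assembly of the membrane attack complex, had 471.7, 469.4, 481.5 and 500.2 CPM in control libraries and 479.8, 478.4, 468.6 and 488.9 CPM in CML libraries. CML replicate 3 was the lowest of all libraries and control replicate 4 the highest. The log2 fold change was -0.01 with a 95% interval of -0.06 to 0.05. Its estimated reads were whole in 0 of 8 libraries, and AL049629.2 overlaps it on the same strand, so its reads may be divided between these entries.

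CD46, CD55 and CD59 differed more among libraries of a group than between the groups. Control replicate 4 was the highest library for each of them, and control replicate 1 the lowest for CD46 and CD55. Over the 8 libraries, CD46 and CD55 had a Pearson r of 0.920 (exact permutation p = 0.00188, adjusted p = 0.00565 over 6 relations) and a Spearman rho of 0.833 (exact permutation p = 0.0154, adjusted p = 0.0308). Without control replicates 1 and 4, r was 0.728. CD46 and CD59 had r = 0.731 (exact permutation p = 0.0402, adjusted p = 0.0482) and rho = 0.548 (exact permutation p = 0.171, adjusted p = 0.205), and r = 0.520 without the same libraries. CD55 and CD59 had r = 0.563 (exact permutation p = 0.145, adjusted p = 0.145) and rho = 0.310 (exact permutation p = 0.462, adjusted p = 0.462), and r = 0.142 without them. Correlations of other gene pairs were not computed for comparison, so whether these are unusual was not tested.
The first principal component of all genes, with 27.0% of the variance, had control replicate 4 at 109 and CML replicate 4 at 87.0 on one side, control replicate 1 at -101 on the other, and the other libraries between -33.8 and -7.07. CD46 followed it with r = 0.939 (exact permutation p = 0.00119, adjusted p = 0.00565) and rho = 0.857 (exact permutation p = 0.0107, adjusted p = 0.0308). CD55 had r = 0.880 (exact permutation p = 0.00588, adjusted p = 0.00882) and rho = 0.619 (exact permutation p = 0.115, adjusted p = 0.172). CD59 had r = 0.880 (exact permutation p = 0.00367, adjusted p = 0.00734) and rho = 0.833 (exact permutation p = 0.0154, adjusted p = 0.0308). Leaving out replicate 4 of both groups gave r = 0.875, 0.757 and 0.489, the largest fall being that of CD59. Control replicate 1, at the other end of the component, was kept in these values. Correlations without it as well were not computed, so how far each relation rests on the extreme libraries was not tested. The component was computed from all genes, CD46, CD55 and CD59 included, and how many other genes follow it as closely was not counted. These relations are therefore not read as particular to the membrane regulators. The permutation p-values also take all libraries as interchangeable. Each group holds 4 libraries, too few for a correlation within it.

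**Figure D2:**
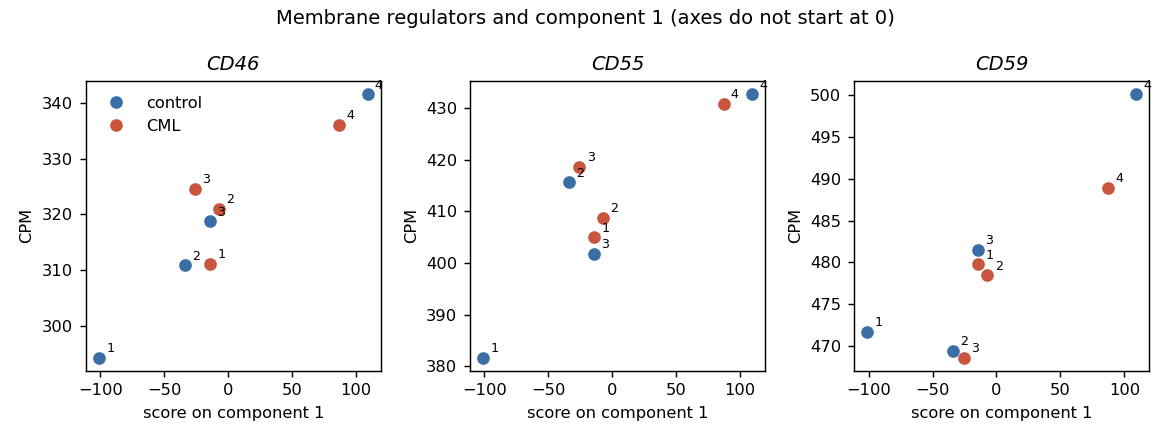
CPM of CD46, CD55 and CD59 against each library's score on the first principal component of all genes, control in blue and CML in orange, with replicate numbers. Control replicate 4 (score 109) and CML replicate 4 (score 87.0) are the 2 highest libraries for each gene.

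Levels of different genes were compared per kb of the union of a gene's exons. PTX3 was the highest, with 127 ± 0.398 CPM per kb in control libraries (SD, n = 4). CD59 followed with 45.5 ± 1.32, CD55 with 39.8 ± 2.11, CFB with 28.0 ± 0.467 and CD46 with 20.4 ± 1.27 CPM per kb. C3 had 6.29 ± 0.340, C1R 4.48 ± 0.253, C1S 0.848 ± 0.168 and SERPING1 0.041 ± 0.015 CPM per kb. No neighbours in this order overlapped over the 8 libraries. With the longest transcript as the length, CD55 (108 CPM per kb) stood above CD59 (62.2) and CD46 (40.4) above CFB (35.9). Those places thus depend on the transcripts assumed. The places of PTX3, C3, C1R, C1S and SERPING1 were the same under both lengths. PTX3 had 1884 bases under both. Shorter transcripts of the other genes, which would raise their levels per kb, were not tried. Whether PTX3 would keep its place with them was not tested.

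**Figure D3:**
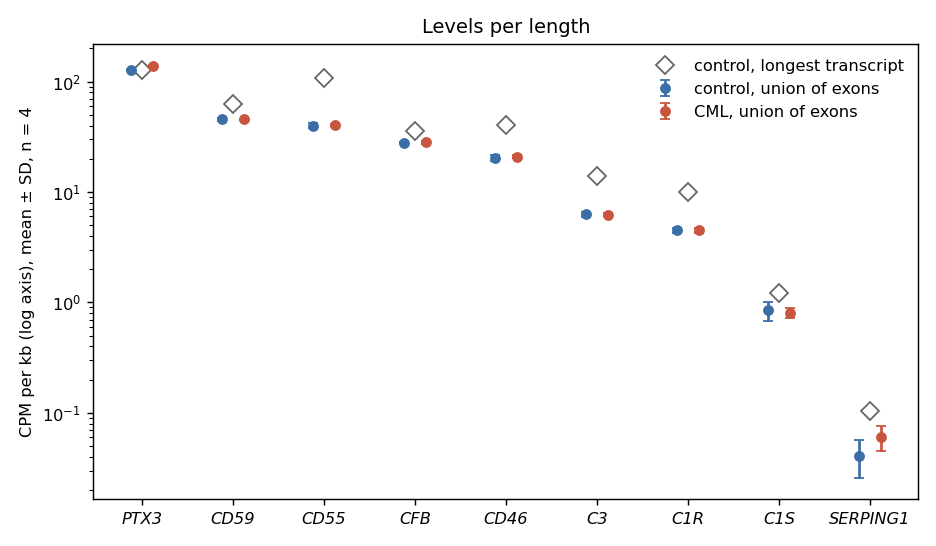
CPM per kb on a log axis for the 9 genes, as mean ± SD of 4 control (blue) and 4 CML (orange) libraries over the union of exons, and the control mean over the longest transcript (open diamonds). Control means run from 127 for PTX3 to 0.041 for SERPING1.

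Over all 9 members, 6 had a positive and 3 a negative log2 fold change, with a median of 0.01, the same to 2 decimals as the 0.01 over all genes. The signs of these small values turned with scaling, to 3 positive and 6 negative after quantile normalization and 4 positive and 5 negative with libraries centred on their median. Apart from PTX3, and above 1 CPM, the largest difference in either direction was the -0.06 of C1S. The wider system was counted in a list of 77 further genes of complement, pentraxins, partners of PTX3 and transcription factors known to act on these genes. Of these, 42 were in the table and 28 averaged 1 CPM or more, 16 higher and 12 lower, with a median log2 fold change of 0.02. In limma with Benjamini-Hochberg adjustment over all genes, 0 were called higher and 1 lower, beside 0.895% of all genes, and 5 of the 42 had an unadjusted p under 0.05, which 7.66% of all genes had.
The list was chosen with earlier results of these data known, so its counts and adjusted p-values are a description only. The 1 call was STAT2, a transcription factor of the interferon response. Its control values were 148.2, 141.5, 153.5 and 145.8 CPM and its CML values 129.2, 124.7, 129.1 and 128.7 CPM. The groups did not overlap, and it fell by 0.20 on the log2 scale (95% interval -0.26 to -0.14, adjusted p = 0.0935 by limma). Without CML replicate 2 the adjusted p by limma was 0.306, and without control replicate 4 the list had 4 calls, with NFKB1 and STAT3 higher and STAT2 and CEBPD lower.

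None of the other listed genes passed the threshold. Of the 4 classical-pathway genes above 1 CPM, 2 had a positive and 2 a negative fold change. C1RL had 7.11 ± 0.588 CPM in control and 6.03 ± 0.487 CPM in CML libraries (SD, n = 4). C4A had 9.0 ± 1.36 and 7.38 ± 0.489 CPM, a log2 fold change of -0.25 with groups that did not overlap (adjusted p = 0.652 by limma). It is nearly identical to C4B, which went the other way, from 4.62 ± 1.23 to 5.26 ± 0.745 CPM (log2 fold change 0.18). The estimated reads of C4A were whole in 0 of 8 libraries, and how reads were divided between C4A and C4B was not tested. CFP, the gene of properdin, which stabilizes the alternative convertase, had 3.57 ± 1.09 and 3.17 ± 0.0855 CPM, and C5, which starts the terminal pathway, 3.25 ± 0.85 and 3.82 ± 0.267 CPM.
Among 4 soluble regulators, 2 were higher and 2 lower. C4BPB had 17.0 ± 0.371 and 17.3 ± 1.52 CPM and CLU, which binds the terminal complex, 14.6 ± 1.97 and 13.5 ± 1.5 CPM. Of 4 receptor genes, 1 was higher and 3 lower. C1QBP had 133 ± 0.718 and 134 ± 3.71 CPM, CALR 6965 ± 143 and 6653 ± 219 CPM and LRP1 102 ± 6.59 and 98.1 ± 11.1 CPM.
NPTXR, the neuronal pentraxin receptor, was the other pentraxin-family gene above 1 CPM, with 7.24 ± 1.17 and 8.44 ± 0.341 CPM. The transcription factors were 9 higher and 4 lower. STAT3 had 142 ± 5.97 and 152 ± 3.82 CPM and NFKB2 133 ± 8.05 and 142 ± 6.62 CPM.

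The genes whose profile over the 8 libraries was most like that of PTX3 were sought among the 9409 genes averaging 10 CPM or more, by the root-mean-square difference of the centred log2 values. PTX3 itself had a root-mean-square deviation of 0.0683 around its mean. The nearest were DUSP5 (0.0153), a phosphatase of MAP kinases, DNAJC24 (0.0206), a DNAJ-family co-chaperone, C15orf48 (0.0236), CXCL2 (0.0279), a chemokine, and HMGN2 (0.0281), a nucleosome-binding protein. Like PTX3, each had all CML libraries above all control libraries. DUSP5 had 294.3, 291.0, 292.9 and 291.6 CPM in control libraries and 319.3, 306.8, 312.1 and 320.1 CPM in CML libraries. CXCL2 went from 67.6 ± 1.82 to 75.1 ± 2.48 CPM, HMGN2 from 165.7 ± 1.08 to 178.5 ± 6.02 CPM, C15orf48 from 46.0 ± 0.636 to 49.7 ± 1.91 CPM and DNAJC24 from 29.6 ± 0.545 to 32.1 ± 0.598 CPM (SD, n = 4). These genes were picked for their likeness, so no test is given. Of the 6 other members at that level, the closest was CD55 at rank 2011, and C1S and SERPING1 were below it.

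**Figure D4:**
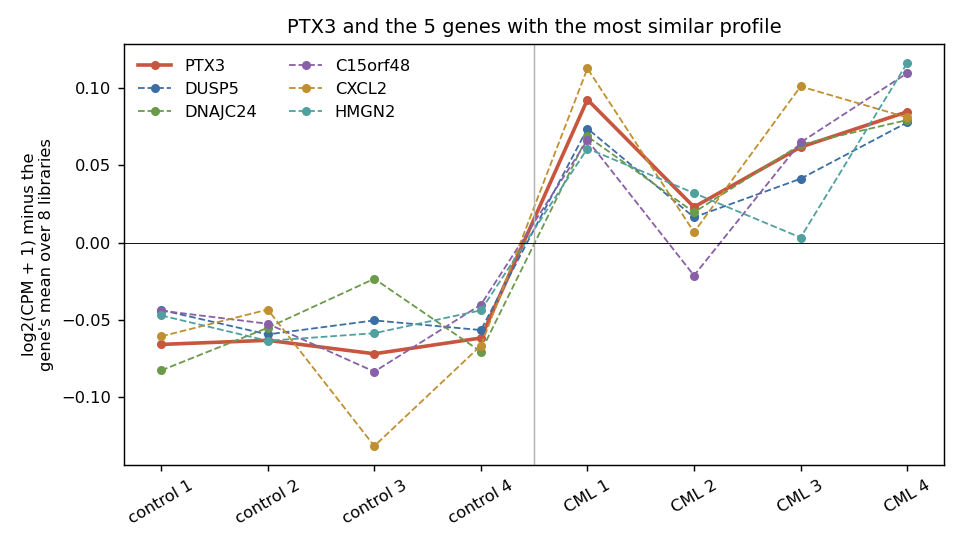
Log2(CPM + 1) minus each gene's mean over 8 libraries for PTX3 (thick line) and the 5 genes most like it, and lines only join the points of 1 gene. Every gene is lower in all control libraries than in any CML library, and CML replicate 2 is the lowest CML library of PTX3, DUSP5, DNAJC24, C15orf48 and CXCL2.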

How the data were processed

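The authors deposited 1 table of CPM values (reads per gene put on one scale of depth) for 4 control and 4 CML libraries of MDA-MB-231 cells, labelled by group and replicate. The submitters' processing notes name edgeR and hg38. For the study's tumors, the methods describe scaling by edgeR's TMM factors, while the aligner, counter and annotation of this experiment are not given in the sources used here. Of the sequencer, the labels give NextSeq in one field and HiSeq in another.

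Rows sharing a symbol were averaged (17681 rows, 17649 genes), and log2(CPM + 1) entered limma (version 3.58.1, R 4.3.3) with a variance trend and Benjamini-Hochberg adjustment over all genes. The threshold was an adjusted p of 0.3, the level the study uses for this experiment, with 0.05 as a second. Values above 0 were whole multiples of 1 read, within 0.05 reads, for 86.2% to 87.2% per library, so reads were used for precision only and no count test was run. Exact permutation tests over libraries were 2-sided (scipy 1.17.1). Lengths came from GENCODE 44, on another build, and are used as lengths only. Promoter windows and coordinates came from RefSeq on GRCh38.p14.

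The members and the complement list were chosen with earlier results of these data known. Named genes were the 9 members, called genes of the list, up to 3 genes of highest mean at 1 CPM or more in each of its 9 roles, the 5 genes most like PTX3, and genes overlapping a member. C4B, CEBPD and NFKB1 were named outside this rule, after their values were seen. The values of 1 gene under this rule are not reported here. Alternatives changed the pseudocount (0.1 CPM), the low-value filter, the scaling, the variance trend, the replicate block and each library in turn. Leaving out rows at 0 in all libraries was added after seeing the data.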

Additional observations from a re-analysis of the deposited data

Results flagged for a closer look

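Of 62 groups of 4 libraries examined, 5 had 1 library far from the other three, where chance gives about 1 in 20, or 3.1. C1S had 4.97 CPM in control replicate 2 and 7.50 to 7.98 CPM in the other control libraries. C4A had 6.65 CPM in CML replicate 3 and 7.53 to 7.67 CPM in the other CML libraries. STAT2 had 124.7 CPM in CML replicate 2 and 128.7 to 129.2 CPM in the rest of its group. Control replicate 4 had 17729521 estimated reads, against 16559917 to 16690413 in the other control libraries. On the first principal component, the score of CML replicate 4 was 87.0, while its group otherwise lay between -25.7 and -7.07.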

How the results depend on the processing

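The log2 fold change of PTX3 was positive under all 15 alternatives, at 0.10 to 0.15, which is a description and no support, since PTX3 was chosen on this contrast. With libraries centred on their median, 0 members were called. STAT2 was lower under all 15, with an adjusted p by limma of 0.0356 to 0.306, under 0.3 in 14. Of 134 fold changes of members under alternatives, 132 moved by less than 1 SD between replicates, the others being PTX3 with quantile normalization (0.10) and SERPING1 with a pseudocount of 0.1 CPM (0.46). The 158 calls over all genes became 102 without rows at 0 in all libraries, 73 with centred libraries, and 20 (without CML replicate 2) to 690 (without control replicate 4) with 1 library left out. The listed complement genes called were 0 to 4 with 1 library left out. The order of levels did not depend on leaving out a library. Same-numbered libraries deviated together with correlations of -0.0645 to 0.334, 2 of 4 over 0.1. Those 2, at 0.334 for replicate 4 and 0.199 for replicate 1, exceeded every pair of unlike number (-0.304 to 0.113). A shared effect of the replicate number was not tested. The numbers were not taken as pairs because the labels do not say that same-numbered libraries were handled together. A fit blocked on replicate called 189 genes. Depth limits SERPING1 (3 to 10 reads per library) and C1S (84 to 140 reads).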
